A study of Mus musculus with 15 samples.

Results

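The 36 genes described here run or mark the cell division cycle. They were chosen by symbol from a table of 44674 mouse genes, all 36 were present, and all passed the low-count filter that left 19401 genes for testing. By role, 17 act in late G2 and mitosis, 12 in DNA replication, 5 are cyclins of G1 and its exit, and 2 (E2f1 and Foxm1) are transcription factors of the cycle. They were followed in 15 bulk RNA-seq libraries from 8 conditions. The endothelial conditions came from Tie2-CreERT2;Rosa26-tdTomato adult mice, in which tamoxifen switches on the red tdTomato protein in cells with Tek (Tie2) promoter activity. Whole bone marrow was grown to confluency, and CD45- tdTomato+ bone marrow endothelial cells (BMECs) were sorted with or without surface endomucin (Emcn), giving P0 Emcn+ and P0 Emcn- (2 libraries each). Emcn- BMECs were also taken at the later passages P1, P2 and P3 (2 libraries each) and P4 (1 library). The study passaged BMECs both within whole marrow cultures and as sorted Emcn- cells. Its description does not say which of these gave the passaged libraries. Lung cells (2 libraries, labelled only as Lung) were Emcn- cells sorted from lung cultures in the study's description, and bone marrow mesenchymal stromal cells (BM MSC, 2 libraries) were tdTomato+ cells cultured from Osx-Cre;Rosa26-tdTomato mice, where the osteoblast lineage promoter Osx drives Cre. BM MSC grew in MesenCult medium, and the marrow and lung endothelial cultures in EGM-2, an endothelial growth medium. In comparisons with BM MSC, cell type and medium therefore cannot be told apart. GEO's labels give the genotype of all samples as WT. Usually 1 mouse gave 1 dish, and nothing ties a library to a mouse, so the p-values measure the spread between these libraries.

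The labels also name 4 batches. For Lung and both P0 conditions replicate 1 was batch d and replicate 2 batch a. Replicate 1 of P1, P2 and P3 and the P4 library were batch b, and replicate 2 of P1, P2 and P3 and the BM MSC libraries were batch c. Batches d and a thus hold all P0 and lung material and batches b and c all passaged and BM MSC material, and between those sides batch cannot be told apart from condition. The study's methods report different Illumina sequencers for different batches of biological replicates. They do not tie these to the batch letters, so batch may also carry the sequencer. Levels are counts per 1000000 counts of the library (CPM), and totals ran from 9914620 to 39718807 counts, at which 3 counts equal 0.303 and 0.0755 CPM. In the P1 to P4 libraries the endothelial marker Cdh5 lay between 0.0564 and 2.33 CPM. By Cdh5 alone, the labelled endothelial identity there rests on the tdTomato sort. Cdh5 was at 6222 and 5118 CPM in P0 Emcn+, at 119 and 6.35 CPM in P0 Emcn-, at 39.5 and 171 CPM in Lung, and at 7.86 and 156 CPM in BM MSC. Replicate 2 of P0 Emcn- lay below both BM MSC libraries in Cdh5, so by Cdh5 alone its endothelial identity rests on the sort as well. Tek went the other way, with 490 counts in that library against 195 and 181 in the deeper BM MSC libraries. In P1 to P4 Tek had between 404 and 1355 counts. The sum of 8 endothelial markers was 69.2 CPM in P0 Emcn- replicate 2 and 42.0 and 348 CPM in BM MSC.

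Cells enter the cycle when D-type cyclins with Cdk4 or Cdk6, then E-type cyclins with Cdk2, inactivate the retinoblastoma family and free the E2F factors, which switch on the replication genes. The replication genes load and fire the MCM helicase and supply deoxynucleotides. Cyclins A and B with Cdk1 then drive mitosis, and their genes, with those for the spindle and chromosome machinery, are switched on late by the MuvB complex with B-Myb and FoxM1. Mitotic transcripts are therefore commonly read as the mark of dividing cells, and the endothelium of adult vessels is mostly quiescent until it is cultured or injured.

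Promoters of the late and early genes carry different short elements. They are shown as background, and whether they relate to the levels in these libraries was not tested. RefSeq windows on GRCm38.p6, from 250 bases before to 50 after the gene start, were found for 28 of the 36 genes (30 windows, since Ccnd3 and Mcm7 have 2 each), while windows of Ccna2, Ccnd1, Ccnd2, Ccne2, Aurkb, Foxm1, Mcm4 and Tpx2 were not used here. Of the 30 windows, 6 are printed 5′ to 3′, with 3 kinds of motif in capitals, searched on both strands: E2F-type (TTTGGCGC, TTTCCCGC, TTTCGCGC), CHR-type (TTTGAA or the letters TTTAAA) and the NF-Y-type CCAAT. Matches on the other strand stand as their reverse complement.
Mki67 (chr7:135716330-135716629, minus strand): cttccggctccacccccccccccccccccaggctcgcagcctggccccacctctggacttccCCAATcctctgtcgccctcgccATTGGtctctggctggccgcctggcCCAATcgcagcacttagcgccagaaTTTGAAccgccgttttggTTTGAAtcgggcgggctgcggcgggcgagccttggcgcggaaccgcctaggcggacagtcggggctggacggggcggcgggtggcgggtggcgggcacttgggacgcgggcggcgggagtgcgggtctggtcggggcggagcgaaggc
Ccnb1 (chr13:100786437-100786736, minus strand): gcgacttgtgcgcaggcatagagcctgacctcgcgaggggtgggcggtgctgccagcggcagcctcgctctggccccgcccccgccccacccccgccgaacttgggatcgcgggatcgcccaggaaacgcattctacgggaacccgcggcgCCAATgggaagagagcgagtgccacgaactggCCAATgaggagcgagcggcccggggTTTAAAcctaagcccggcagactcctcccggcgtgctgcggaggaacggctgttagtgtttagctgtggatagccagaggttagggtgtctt
Cdk1 (chr10:69352863-69353162, minus strand): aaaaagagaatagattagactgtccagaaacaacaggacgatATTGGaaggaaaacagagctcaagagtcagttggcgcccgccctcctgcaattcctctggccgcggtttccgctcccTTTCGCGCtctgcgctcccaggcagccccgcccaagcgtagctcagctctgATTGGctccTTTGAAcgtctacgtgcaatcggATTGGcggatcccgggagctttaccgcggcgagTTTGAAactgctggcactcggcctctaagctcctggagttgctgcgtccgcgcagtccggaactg
Plk1 (chr7:122159185-122159484, plus strand): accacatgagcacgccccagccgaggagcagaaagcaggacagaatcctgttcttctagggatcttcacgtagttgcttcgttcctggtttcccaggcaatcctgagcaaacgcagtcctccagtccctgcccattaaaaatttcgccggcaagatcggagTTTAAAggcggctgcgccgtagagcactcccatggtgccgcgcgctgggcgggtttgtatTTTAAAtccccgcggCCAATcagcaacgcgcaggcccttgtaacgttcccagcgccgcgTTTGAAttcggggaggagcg
Mcm3 (chr1:20820263-20820562, minus strand): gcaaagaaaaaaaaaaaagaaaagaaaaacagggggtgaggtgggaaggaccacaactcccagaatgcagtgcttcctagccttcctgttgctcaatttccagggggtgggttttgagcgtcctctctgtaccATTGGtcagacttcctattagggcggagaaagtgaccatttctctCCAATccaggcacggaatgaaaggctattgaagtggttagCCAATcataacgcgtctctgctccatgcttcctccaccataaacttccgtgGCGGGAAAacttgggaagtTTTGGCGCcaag
Mcm5 (chr8:75109259-75109558, plus strand): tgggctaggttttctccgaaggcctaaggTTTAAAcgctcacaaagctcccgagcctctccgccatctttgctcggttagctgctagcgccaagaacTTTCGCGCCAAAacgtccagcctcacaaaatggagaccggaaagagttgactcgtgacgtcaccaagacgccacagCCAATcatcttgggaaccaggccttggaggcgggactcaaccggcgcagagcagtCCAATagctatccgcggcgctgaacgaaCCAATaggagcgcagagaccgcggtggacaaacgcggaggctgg
The CHR-type letters stood in 12 of the 14 mitosis windows (85.7%), in 4 of 12 replication windows (33.3%) and in 27.6% of all 32851 windows in the table. CCAAT was found in 12 of 14 mitosis windows (85.7%) and 10 of 12 replication windows (83.3%), beside 37.4% of all windows. E2F-type letters were in 1 of 14 mitosis windows (7.14%), the one of Cdk1, in 5 of 12 replication windows (41.7%) and in 1.84% of all windows. In Mcm5 an E2F-type match on each strand overlaps the other. CHR-type and CCAAT occurred together in 11 of 14 mitosis windows (78.6%) against 10.7% of all windows. These are letter matches and not shown sites, and the members were not drawn at random, so no test was made.

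**Figure D1:**
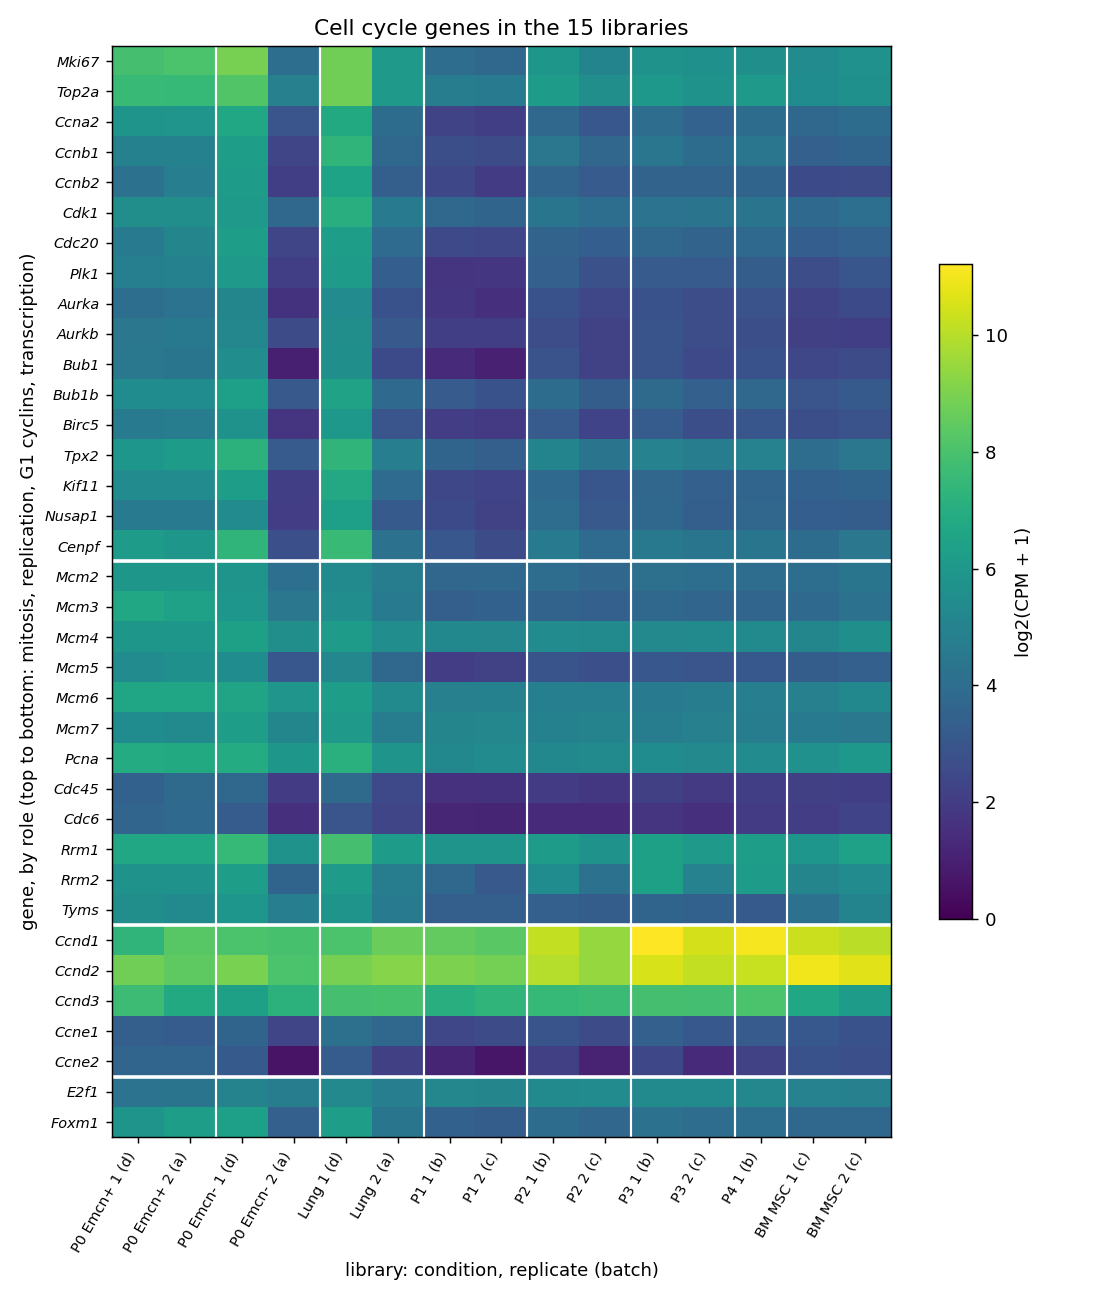
Level of each of the 36 genes (rows, in 4 blocks by role) in each of the 15 libraries (columns, batch letter in brackets), as log2(CPM + 1). The mitosis block is bright in both P0 Emcn+ libraries and in replicate 1 of P0 Emcn- and Lung and dark in replicate 2 of P0 Emcn- and in P1, while Ccnd1 and Ccnd2 are bright in P3, P4 and BM MSC.

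The mitosis genes were high and alike in the P0 Emcn+ libraries and differed by an order of magnitude between the replicates of P0 Emcn-. Mki67, the Ki-67 proliferation antigen, was at 240.1 and 261 CPM in P0 Emcn+ replicates 1 and 2, at 478 and 15.5 CPM in P0 Emcn-, and at 437 and 65.6 CPM in Lung. Top2a, the topoisomerase that untangles sister chromatids, was at 194 and 182 CPM in P0 Emcn+, at 285 and 28.8 CPM in P0 Emcn-, and at 434 and 65.1 CPM in Lung. In both genes replicate 1 of P0 Emcn- and of Lung was above the P0 Emcn+ libraries and replicate 2 below them, so the groups overlap. Ccnb1, cyclin B1, was at 29.3 and 29.8 CPM in P0 Emcn+, at 78.0 and 4.03 CPM in P0 Emcn-, and at 159 and 12.3 CPM in Lung. Plk1, the kinase that directs spindle assembly, was at 27.9 and 29.0 CPM in P0 Emcn+, at 64.7 and 3.23 CPM in P0 Emcn-, and at 71.0 and 9.18 CPM in Lung. Bub1, a kinase of the spindle checkpoint, was at 21.4 and 19.7 CPM in P0 Emcn+, at 44.3 and 1.01 CPM in P0 Emcn-, and at 47.0 and 4.795 CPM in Lung. In all 3 of these genes Lung replicate 1 was the highest of the 6 libraries, P0 Emcn- replicate 1 the next, and P0 Emcn- replicate 2 the lowest. The other 12 mitosis genes are Cdk1, whose kinase drives entry to mitosis, Ccna2, Ccnb2, Cdc20, Aurka, Aurkb, Bub1b, Birc5, Tpx2, Kif11, Nusap1 and Cenpf. They ran from 15.4 to 73.3 CPM in P0 Emcn+ replicate 1 and from 18.5 to 70.6 CPM in replicate 2. In P0 Emcn- they ran from 34.3 to 162 CPM in replicate 1 and from 2.12 to 12.4 CPM in replicate 2, so these ranges do not touch. In Lung they ran from 41.3 to 186 CPM and from 6.04 to 26.6 CPM. A lower CPM in a bulk library can mean fewer cycling cells or less of the transcript in each, which cannot be told apart.

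On the log2(CPM + 1) scale, all 17 mitosis genes were more than 2-fold higher in replicate 1 than in replicate 2 of P0 Emcn-, with a median difference of 3.96, a lowest of 2.32 and a highest of 4.86. In Lung all 17 were again more than 2-fold apart in the same direction, with a median of 2.82 and a range from 2.34 to 3.59. In P0 Emcn+, whose replicates came from the same pair of batches, none of the 17 was 2-fold apart and the median was -0.05. Of all 36 genes, 29 (80.6%) were more than 2-fold apart in P0 Emcn- beside 8.24% of all tested genes, 26 (72.2%) in Lung beside 5.2%, and 0 in P0 Emcn+ beside 2.91%. The passaged replicates lay closer. None of the 36 was 2-fold apart in P1, where 1.52% of all genes were, 2 in P2 beside 1.73% and 2 in P3 beside 2.11%, and 0 in BM MSC beside 4.63%. These distances compare single libraries and have no test.

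**Figure D2:**
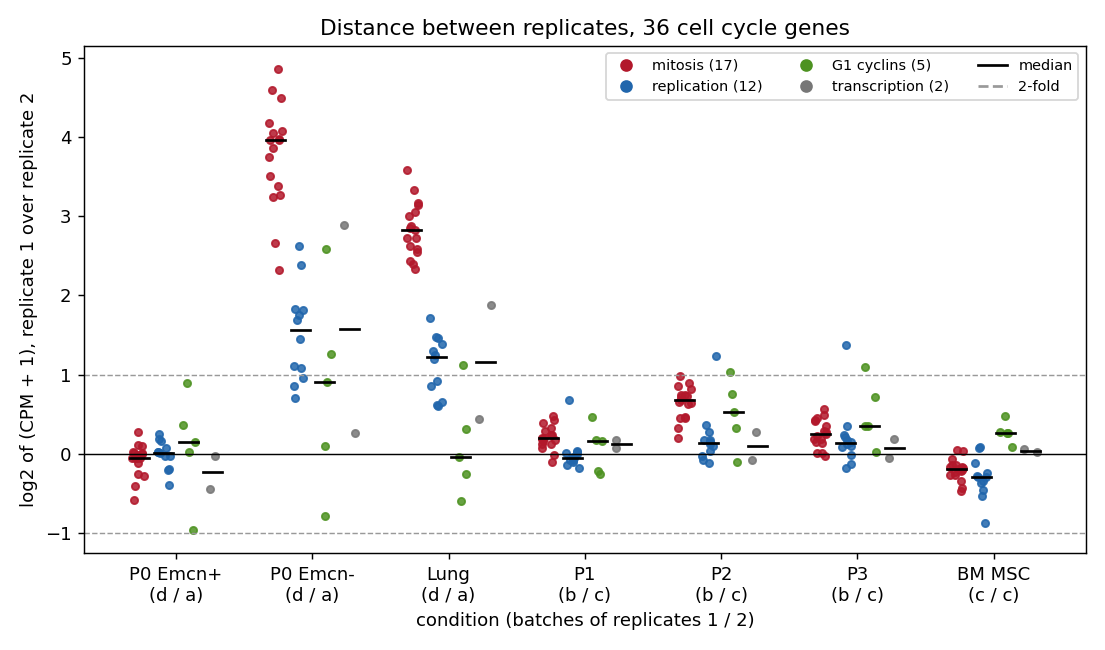
Difference between replicate 1 and replicate 2 in log2(CPM + 1) for each of the 36 genes (points, coloured by role), by condition, with the batches of the replicates under each name. Black bars are medians per role and dashed lines mark 2-fold. The mitosis genes of P0 Emcn- and Lung lie between 2.32 and 4.86, those of the other conditions within 1 of 0.

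A term for batch d against batch a across P0 Emcn+, P0 Emcn- and Lung was positive for 35 of the 36 genes, with a median log2 change of 2.37 in the mitosis genes and 0.03 over all genes tested. None of the 36 was called in edgeR, and 0.201% of all genes were. At an unadjusted p under 0.05 there were 31, beside 15% of all genes. DESeq2 called 18 of the 36, all higher in batch d (1.37% of all genes were called higher), and 10 with ashr shrinkage (0.54%). With either P0 Emcn+ library left out, this term rests on P0 Emcn- and Lung alone. Those are the conditions whose replicates lay far apart, so calls in such a fit do not speak for P0 Emcn+. A call here means an edgeR adjusted p under 0.05 and a log2 fold change beyond 1.5, the limits of the study's methods. The batch term of the passages, b against c, was smaller, with a median of 0.48 in the mitosis genes, and none of the 36 was called by edgeR (0.294% of all genes were) or DESeq2, with 3 at an unadjusted p under 0.05 (12.2% of all genes).

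The comparison of P0 Emcn+ with P0 Emcn- asks whether the sorted BMEC types differ in their cycling state, and within the batches it gave opposite answers for mitosis. In batch d, P0 Emcn+ was below P0 Emcn- in 17 of 17 mitosis genes, with a median log2 ratio of -1.02. In batch a it was above in 17 of 17, with a median of 2.72. For Ccnb2, cyclin B2, the log2 ratios were -1.96 in batch d and 2.71 in batch a, and for Mki67 they were -0.99 and 3.99. Over the whole set, 28 of 36 genes were below in d and above in a, a pattern that 12.8% of all tested genes had. Each ratio rests on 1 library a side, and whether the ratios differ between batches was not tested.

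**Figure D3:**
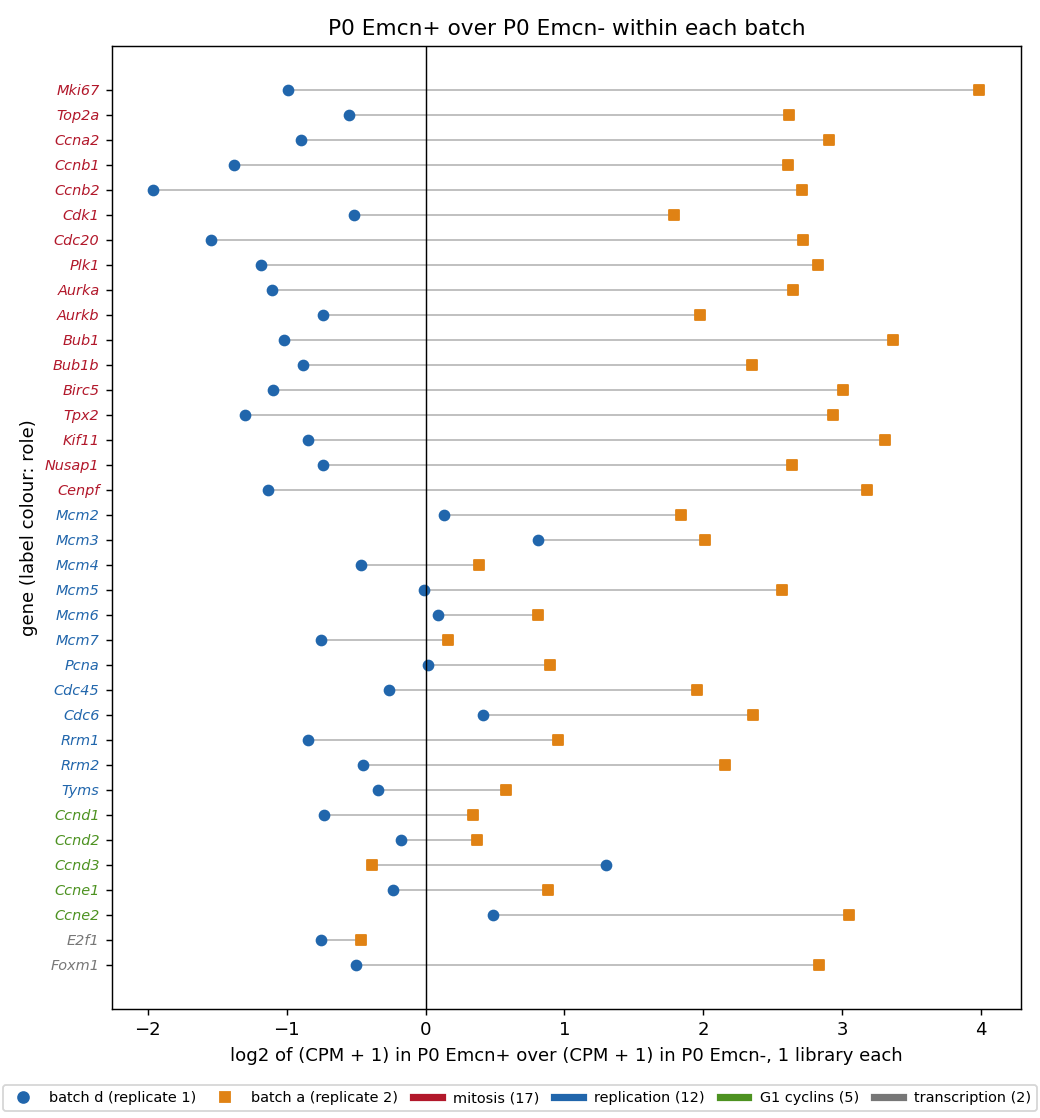
Log2 ratio of (CPM + 1) in P0 Emcn+ over P0 Emcn- for each of the 36 genes, from the batch d libraries (circles) and the batch a libraries (squares). Gene names are coloured by role. For all 17 mitosis genes the circle is left of 0 and the square right of 0, while Mcm2, Mcm3, Mcm6, Cdc6 and Ccne2 are right of 0 in both batches and E2f1 left of 0 in both.

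Pooled over batches, no mitosis gene was called between P0 Emcn+ and P0 Emcn-. The 17 log2 fold changes lay between -0.74 and 0.29, and with batch terms in the fit all 17 were positive, between 0.74 and 1.63, again with none called. None of the 36 genes was called in edgeR, beside 19.2% of all genes, and DESeq2 called 0 as well, with 3 of the 36 at an unadjusted p under 0.05, where 43% of all genes were. Without P0 Emcn- replicate 1, edgeR called 16 of the 36 higher in P0 Emcn+, beside 7.61% of all genes, and without replicate 2 it called 0. Summed over the 17 genes, the level was 973 ± 22.2 CPM (SD, n = 2) in P0 Emcn+, 1003 ± 1253 in P0 Emcn- and 1322 ± 1419 in Lung. In Lung against P0 Emcn-, and in Lung against P0 Emcn+, edgeR and DESeq2 each called none of the 36, beside 3.83% and 21.1% of all genes in edgeR, and 2 and 4 of the 36 were under an unadjusted p of 0.05 (18% and 45.7% of all genes). All 17 mitosis genes were higher in Lung than in P0 Emcn+ in batch d (median log2 ratio 1.34) and lower in batch a (median -1.49). Lung exceeded P0 Emcn- in 16 of 17 mitosis genes in batch d and 17 of 17 in batch a, with medians of 0.23 and 1.28.

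Marker levels of other cells moved with the P0 Emcn- and lung replicates by other amounts. The summed level of 8 endothelial markers was 255 and 69.2 CPM in P0 Emcn- replicates 1 and 2 and 156 and 584 CPM in Lung, so the library with high mitosis genes held more of them in P0 Emcn- and less in Lung. The sum of 10 mesenchymal markers was 21170 and 16339 CPM in P0 Emcn- but 12858 and 14057 CPM in Lung. In BM MSC it was 19675 and 11104 CPM. The sum of 12 macrophage and hematopoietic markers was 226 and 273 CPM in P0 Emcn- but 24.0 and 22.7 CPM in Lung. In P0 Emcn+ the endothelial sum was 11820 and 9940 CPM, the mesenchymal sum 246 and 306 CPM and the macrophage sum 628 and 620 CPM. A set of 4 erythroid markers stayed under 0.70 CPM in every library. The part of these cells in the mitosis levels was not tested.

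The summed level of the mitosis genes was lowest in P1 by the mean of the condition. By library, P0 Emcn- replicate 2 (116 CPM) lay between the P1 replicates (120 and 101 CPM). Mki67 was at 14.8 and 12.5 CPM in P1, Top2a at 25.7 and 22.7 CPM, and Ccnb1 at 5.56 and 4.88 CPM. Those values lie below both P0 Emcn+ libraries, while P0 Emcn- replicate 2 was at 15.5, 28.8 and 4.03 CPM. Against P0 Emcn-, the only mitosis gene called was Ccna2, cyclin A2, which was at 103 and 6.76 CPM in P0 Emcn- and at 3.90 and 3.26 CPM in P1. It fell by 3.79 on the log2 scale (SE 1.14, edgeR adjusted p = 0.0469). Of the 36 genes 5 were called, all lower, while 3.07% of all genes were called lower. The median log2 fold change was -2.09 over the 36 and 0.02 over all genes tested. This count rested on single libraries: without P0 Emcn- replicate 2 it was 27 (4.83% of all genes called lower), and without either P1 library, or without P0 Emcn- replicate 1, it was 0. DESeq2 called 18 lower, beside 4.19% of all genes, and 27 of the 36 were under an unadjusted p of 0.05 (34.4% of all genes), 26 of them lower.

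Because the P0 Emcn- replicates lay so far apart, P1 was also set against P0 Emcn+, a comparison added after seeing the data that crosses sorted types as well as batches and culture time. In edgeR 18 of the 36 genes were called lower and none higher, beside 11.8% of all genes called lower. The markers of other cells moved with this comparison. All 8 endothelial markers were called lower in P1 (median log2 fold change -8.23) and 9 of 12 macrophage and hematopoietic markers were, while 8 of 10 mesenchymal markers were called higher (median 4.10), as were 19.9% of all genes. The endothelial sum was 69.96 and 59.4 CPM in P1 and the mesenchymal sum 6042 and 6745 CPM, against the P0 Emcn+ sums given above. Against P0 Emcn-, 4 of 10 mesenchymal markers and 1 of 8 endothelial markers were called lower in P1. The part of these cells in the levels of the 36 genes was not tested. The median log2 fold change was -2.45 over the 36 and 0.11 over all genes. Of the 18, 8 were mitosis genes, among them Mki67 (log2 fold change -4.07, SE 1.27, edgeR adjusted p = 0.0215), Bub1 (-3.85, SE 1.36, adjusted p = 0.0365) and Plk1 (-3.51, SE 1.17, adjusted p = 0.0288). Fewer of the 36 were called when any 1 of the P0 Emcn+ or P1 libraries was left out, which leaves 1 library in that condition. Batch terms in the fit gave 27 called lower, beside 12.2% of all genes. The spread in this fit is shared by all 15 libraries. When the P0 Emcn- and lung libraries were left out of the fit (11 libraries, also chosen after seeing the data), the median quasi-likelihood dispersion of the mitosis genes was 0.82 in place of 8.64. The libraries left out were those whose replicates lay furthest apart in these genes. The SE and adjusted p-values of this fit depend on that choice and can be too small. All 17 mitosis genes were then called lower in P1 than in P0 Emcn+, with 27 of the 36 called beside 12.6% of all genes, and Mki67 had an SE of 0.302 (log2 fold change -4.09, edgeR adjusted p = 2.21e-05).

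By their CPM values all 17 mitosis genes were higher in P2, P3 and P4 than in P1, and every one of these libraries was below both P0 Emcn+ libraries. Mki67 was at 59.96 and 32.7 CPM in P2, at 53.0 and 48.0 CPM in P3, and at 46.4 CPM in P4. Ccnb1 was at 20.8 and 12.1 CPM in P2, at 19.9 and 14.7 CPM in P3 and at 20.4 CPM in P4. All 17 had P2 and P3 libraries wholly above P1. Among all genes, 15.6% lay wholly above P1 in P2 and 23% in P3. The summed level was 110 ± 12.9 CPM in P1, then 276 ± 95.2 in P2, 294 ± 34.9 in P3 (SD, n = 2 each) and 309 in P4. Median log2 fold changes of the 17 genes were 1.37 for P2, 1.46 for P3 and 1.60 for P4 over P1, while the median over all genes was -0.01 in each. The macrophage marker sum moved the other way, from 76.8 and 245 CPM in P1 to 18.8 and 15.3 CPM in P3, and its part was not tested.

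In the fit of all 15 libraries none of these mitosis differences passed. edgeR called 0 of the 36 genes in P2 against P1, where it called none of the 19401 (4.41% were under an unadjusted p of 0.05, 2 of the 36 among them, and DESeq2 called none of the 36). The fit without the P0 Emcn- and lung libraries can give p-values that are too small, as said above. It called 7 mitosis genes higher in P3 than in P1, beside 0.485% of all genes called higher. These were Mki67, Ccna2, Ccnb1, Ccnb2, Plk1, Bub1 and Cenpf, the gene of a large kinetochore protein. Bub1 had the highest of the 7 log2 fold changes (2.14, SE 0.361, edgeR adjusted p = 0.039) and Ccnb2 the lowest (1.59, SE 0.288, adjusted p = 0.043). With the batch term added the count of mitosis genes in P3 was again 7 (1.05% of all genes were called higher), and 17 of 17 passed the adjusted p alone, as did 2.7% of all genes. In P2 against P1 that fit called 0 of the 36 without the batch term, and 6 with it, beside 0.126% of all genes called higher. Of the 6, 5 were mitosis genes (Mki67, Ccna2, Ccnb1, Bub1 and Cenpf) and 1 was Rrm2. P4 has 1 library, whose spread was assumed to be like that of the other conditions, and on that assumption the fit without the batch term called 3 mitosis genes (Ccnb1, Cdc20 and Plk1), beside 0.311% of all genes. P3 over P2 had no single direction, since within batch b 12 of the 17 were lower in P3 and within batch c 17 of 17 were higher.

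**Figure D4:**
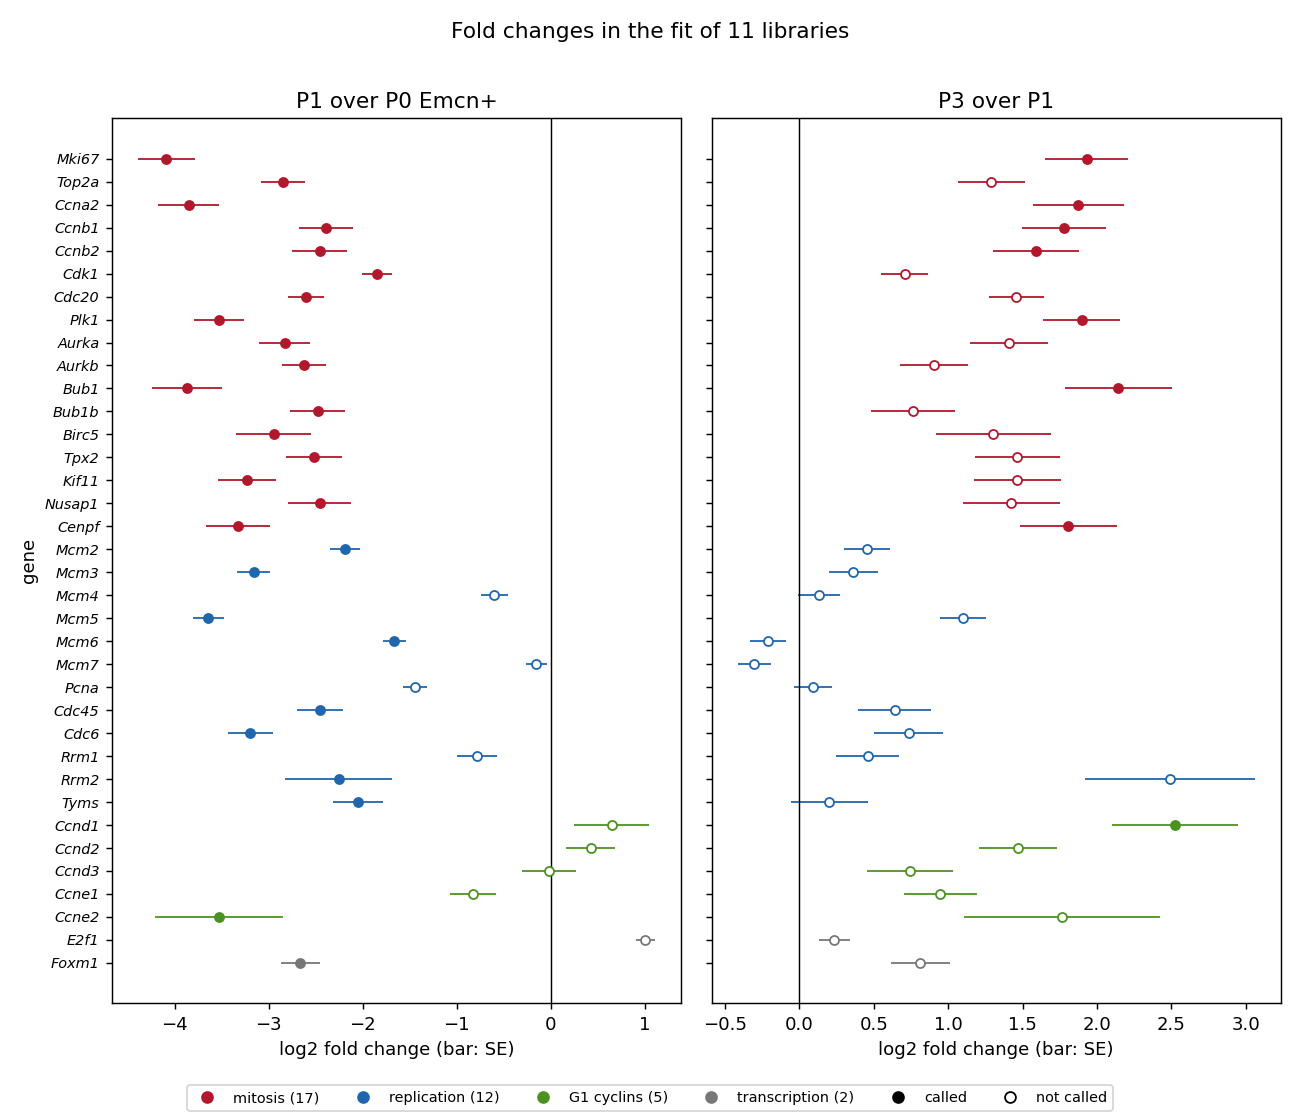
Log2 fold change (point) with its SE (bar) of each of the 36 genes for P1 over P0 Emcn+ (left) and P3 over P1 (right), from the edgeR fit of the 11 libraries other than P0 Emcn- and Lung. Colour gives the role, and filled points passed the adjusted p and fold limits. On the left 27 filled points lie below 0, and on the right 7 mitosis genes and Ccnd1 are filled above 0.

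In BM MSC the mitosis genes lay near their passage levels by value. Mki67 was at 41.2 and 49.7 CPM and the sum of the 17 genes at 231 ± 28.03 CPM (SD, n = 2). Against P0 Emcn-, Aurkb, the kinase of the chromosomal passenger complex, was called lower (3.40 and 3.29 CPM against 35.8 and 4.84 CPM, log2 fold change -2.54, SE 0.877, edgeR adjusted p = 0.0464), a call lost with batch terms (adjusted p = 0.0554). In that comparison 3 of the 36 genes were called, beside 18.7% of all genes (9 and 46.4% were under an unadjusted p of 0.05), and 23 without P0 Emcn- replicate 2, beside 17.3%. Against the mean of P1, P2 and P3 none of the 36 was called by edgeR with all 15 libraries, beside 14.2% of all genes. DESeq2 called none either, and 5 were under an unadjusted edgeR p of 0.05, where 42.2% of all genes were. The 17 mitosis log2 fold changes had a median of 0.06 and ran from -0.70 to 0.72.

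The replication genes shared the split of the P0 replicates but to a lesser size, and within them the MCM helicase genes did not move alike. Mcm5, a helicase subunit, was at 42.1 and 48.5 CPM in P0 Emcn+, at 42.5 and 7.36 CPM in P0 Emcn-, and at 35.8 and 12.3 CPM in Lung. Mcm3, another subunit, was at 102 and 85.6 CPM in P0 Emcn+, at 57.7 and 20.5 CPM in P0 Emcn-, and at 43.8 and 23.7 CPM in Lung, so its P0 Emcn+ libraries were the 2 highest of the 15. Mcm4 was at 59.5 and 59.3 CPM in P0 Emcn+, at 82.3 and 45.1 CPM in P0 Emcn-, and at 69.7 and 44.0 CPM in Lung. Cdc45, a partner of the helicase, was at 10.3 and 13.8 CPM in P0 Emcn+, at 12.5 and 2.82 CPM in P0 Emcn-, and at 13.6 and 4.61 CPM in Lung. The median difference between replicates of the 12 genes was 1.57 in P0 Emcn- and 1.22 in Lung in log2(CPM + 1), and 0.01 in P0 Emcn+.

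Unlike the mitosis genes, a few replication genes lay above P0 Emcn- in P0 Emcn+ in both batches. These were Mcm2, Mcm3, Mcm6 and Cdc6, the licensing factor that loads the helicase, whose groups do not overlap, and Pcna, whose groups do. Mcm6 was at 97.9 and 99.5 CPM in P0 Emcn+ and at 91.9 and 56.2 CPM in P0 Emcn-, and Mcm2 at 59.6 and 60.6 CPM against 54.3 and 16.2 CPM. Groups lying wholly higher in P0 Emcn+ were found for 27.8% of all genes. Mcm3 passed the adjusted p, as 34.1% of all genes did, but not the fold limit (log2 fold change 1.28, SE 0.418, edgeR adjusted p = 0.0378), and its ratio was 0.81 in batch d and 2.01 in batch a. With the batch terms, where 19.4% of all genes were called, Cdc6 was called (1.55, SE 0.479, edgeR adjusted p = 0.0353) and Mcm3 fell just short of the fold limit (1.46, adjusted p = 0.00321). Mcm3 was also lower in Lung than in P0 Emcn+ by adjusted p alone, a limit that 37.2% of all genes passed (-1.43, SE 0.42, edgeR adjusted p = 0.0219), and with the batch terms it was called there (-1.53, adjusted p = 0.00222).

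P1 had lower levels of the replication genes than P0 by mean CPM. Of the 12, 4 were called lower against P0 Emcn-, beside 3.07% of all genes. Mcm5 fell to 3.15 and 3.59 CPM (log2 fold change -2.76, SE 0.696, edgeR adjusted p = 0.0249) and Mcm3 to 9.43 and 10.0 CPM (-1.86, SE 0.43, adjusted p = 0.0175). Tyms, thymidylate synthase, went from 58.1 and 26.5 CPM to 9.58 and 9.61 CPM (-1.99, SE 0.459, adjusted p = 0.0174), and Cdc6 from 8.46 and 1.82 CPM to 1.28 and 1.26 CPM (-1.91, SE 0.56, adjusted p = 0.043). In each of the 4 the groups do not overlap, as in the 35.3% of all genes that lay wholly lower in P1. Against P0 Emcn+ 8 of the 12 were called lower, beside 11.8% of all genes. Pcna, the sliding clamp of DNA polymerase, passed the adjusted p alone there, as 52.9% of all genes did (119 and 112 CPM to 37.1 and 42.0 CPM, log2 fold change -1.42, SE 0.395, edgeR adjusted p = 0.0125). Mcm7, at 43.3 and 38.7 CPM in P0 Emcn+ and at 33.6 and 34.97 CPM in P1, had the smallest of the 12 changes there (log2 fold change -0.13).

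Over the passages none of the 12 replication genes passed the adjusted p in the edgeR fit of all 15 libraries, and Rrm2 and Mcm5 alone passed it in the edgeR fits of 11 libraries with or without the batch term. The summed level of the 12 was 242 ± 1.86 CPM in P1, then 271 ± 31.6 in P2, 310 ± 51.0 in P3 (SD, n = 2 each) and 330 in P4, and the median log2 fold change of P3 over P1 was 0.40. Mcm6 and Mcm7 had negative values of P3 over P1 that did not pass the test, with Mcm7 at 25.8 and 28.2 CPM in P3. Rrm2 encodes the regulated subunit of ribonucleotide reductase. It was at 12.9 and 7.68 CPM in P1, at 42.8 and 17.6 CPM in P2, at 80.8 and 30.5 CPM in P3, and at 72.0 CPM in P4. Batch b lay above batch c at every passage, and within each batch P2 was above P1 and P3 above P2. P3 over P1 did not pass in edgeR with all libraries (log2 fold change 2.48, adjusted p = 0.246) or in the 11 libraries (2.49, adjusted p = 0.0713), and it passed there with the batch term (2.37, SE 0.177, adjusted p = 0.00882). Mcm5, a subunit of the replicative helicase, was at 3.15 and 3.59 CPM in P1, at 6.54 and 5.67 CPM in P2, at 7.25 and 6.70 CPM in P3 and at 7.51 CPM in P4, so no P1 library reached any later one. It had smaller log2 fold changes than Rrm2, of P3 over P1 (1.10, SE 0.155, edgeR adjusted p = 0.0299 in the 11 libraries) and of the single P4 library over P1 (1.24, SE 0.18, adjusted p = 0.0448), which passed the adjusted p and not the fold limit. By the adjusted p alone 1.08% of all genes were higher in P3 and 0.432% in P4. With all 15 libraries Mcm5 did not pass in P4 (1.23, adjusted p = 0.603). Rrm1, the catalytic partner of Rrm2, was at 55.2 and 54.1 CPM in P1 and at 81.5 and 63.7 CPM in P3.

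In BM MSC the replication genes summed to 334 ± 63.1 CPM (SD, n = 2). Mcm3, Mcm6 and Mcm7 were lower than in P0 Emcn- by adjusted p alone, which 35.3% of all genes passed, with log2 fold changes of -1.28, -1.09 and -1.22. Against the mean of P1, P2 and P3, Tyms passed the adjusted p alone, as 32% of all genes did (17.1 and 32.3 CPM in BM MSC, 8.88 to 11.3 CPM in P1, P2 and P3, log2 fold change 1.22, SE 0.341, edgeR adjusted p = 0.0212).

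The D-type cyclins, which join Cdk4 and Cdk6 and respond to growth signals, followed the mitosis genes only in part. In P1 over P0 Emcn- the median log2 fold change was 0.52 for the 5 G1 cyclins and -3.02 for the mitosis genes. In P3 over P1 both medians were positive, at 1.46 each. Ccnd1, cyclin D1 (GRCm38, chr7:144929931-144939925, minus strand), was at 160 and 313 CPM in P0 Emcn+, at 265 and 247 CPM in P0 Emcn-, at 265 and 400.4 CPM in Lung, and at 365 and 322 CPM in P1. It then stood at 1165 and 687.5 CPM in P2, at 2372 and 1440.4 CPM in P3, at 2121 CPM in P4, and 1261 and 1053 CPM in BM MSC. Every P2, P3, P4 and BM MSC library was above every P0, lung and P1 library. P3 exceeded P1 by 2.51 on the log2 scale (SE 0.405, edgeR adjusted p = 0.0453), and Ccnd1 was the only one of the 36 genes called there, beside 0.0773% of all genes called higher. The fitted line over P1 to P4 gave 2.73 from P1 to P4 (SE 0.425, adjusted p = 0.0394), again the only one of the 36, beside 0.129% of all genes called higher. Neither call held when any 1 of the P1, P2 or P3 libraries it uses was left out (edgeR adjusted p from 0.136 to 0.315 for P3 over P1 and from 0.05 to 0.242 for the line). P4 over P1 was not called in edgeR, as for all 36 genes (0.0773% of all genes were called, 4 of the 36 and 11.3% of all genes were under an unadjusted p of 0.05, and DESeq2 called 1, beside 1.03% of all genes called higher).

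**Figure D5:**
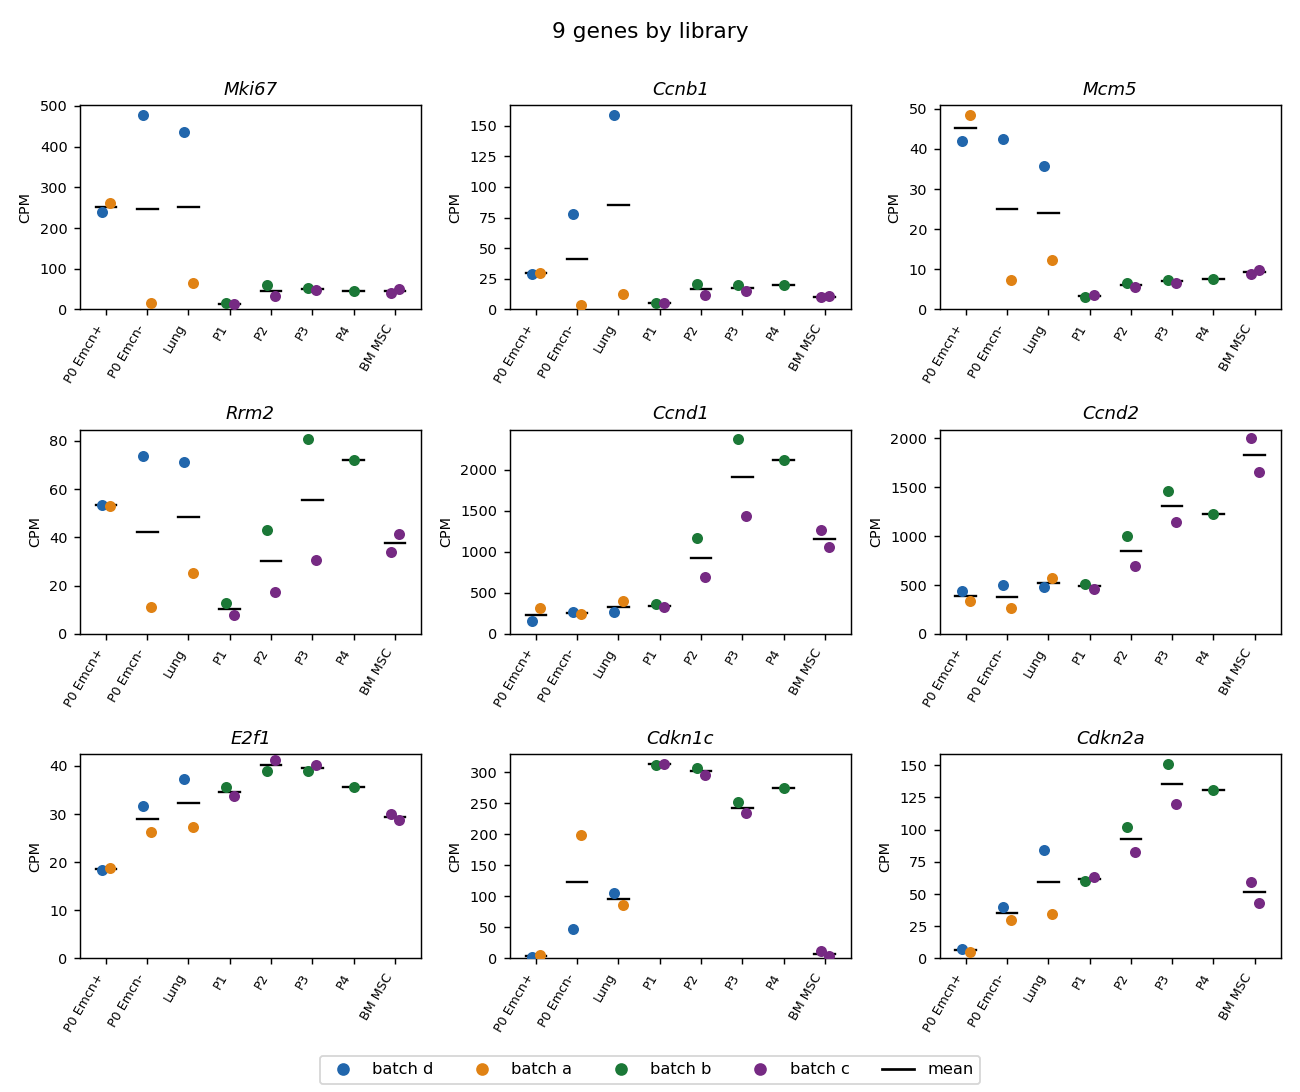
CPM of 9 genes in each library (points, coloured by batch) with the mean of each condition (bar), linear axes from 0. Mki67, Ccnb1, Mcm5 and Rrm2 split by batch in P0 Emcn- and Lung, Ccnd1, Ccnd2 and Cdkn2a are higher in P3 than in P1, and Cdkn1c is between 234 and 313 CPM in P1 to P4 and at most 12.01 CPM in P0 Emcn+ and BM MSC.

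Ccnd2, cyclin D2, was at 515 and 460.3 CPM in P1, at 998 and 690 CPM in P2, at 1465 and 1147 CPM in P3, at 1222 CPM in P4, and 1999 and 1653 CPM in BM MSC, its highest libraries. The difference of P3 from P1 did not pass with all libraries (log2 fold change 1.46, edgeR adjusted p = 0.101). BM MSC exceeded P0 Emcn- in Ccnd1 (log2 fold change 2.27, SE 0.402, edgeR adjusted p = 0.00222) and in Ccnd2 (2.36, SE 0.335, adjusted p = 0.000697). Ccnd3, cyclin D3, went another way, at 101 and 72.3 CPM in BM MSC and 133 to 239 CPM in P1, P2 and P3 (-1.20, SE 0.278, edgeR adjusted p = 0.00869, short of the fold limit). It was also the 1 gene of the 36 with P0 Emcn+ above P0 Emcn- in batch d (206 against 83.03 CPM) and below in batch a (110.5 against 144 CPM).

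The E-type cyclins, partners of Cdk2 at the entry to S phase, were low throughout. Ccne1 was between 4.14 and 16.4 CPM in all 15 libraries. Ccne2 was at 11.6 and 11.4 CPM in P0 Emcn+, at 8.01 and 0.504 CPM in P0 Emcn-, at 8.56 and 3.41 CPM in Lung, and at 1.22 and 0.61 CPM in P1. The P0 Emcn- replicate 2 value rests on 5 counts. Ccne2 was called lower in P1 than in P0 Emcn+ (log2 fold change -3.51, SE 1.04, edgeR adjusted p = 0.0173). Ccne2 was at 6.18 and 5.75 CPM in BM MSC and 0.61 to 4.46 CPM in P1, P2 and P3. With all 15 libraries it was called higher in BM MSC with the batch terms (2.47, SE 0.594, edgeR adjusted p = 0.0153, where 13.6% of all genes were called) but not without them. In the 11 libraries it was called without them (1.57, SE 0.469, edgeR adjusted p = 0.031), beside 14.9% of all genes.

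The transcription factors differed from each other. Foxm1, a driver of the mitotic genes, went with them, at 55.1 and 75.3 CPM in P0 Emcn+, at 78.3 and 9.68 CPM in P0 Emcn-, at 74.6 and 19.5 CPM in Lung, and at 10.2 and 8.93 CPM in P1. It was lower in P1 than in P0 Emcn+ (log2 fold change -2.64, SE 0.816, edgeR adjusted p = 0.0205). E2f1, an activating E2F, was lowest in P0 Emcn+, at 18.4 and 18.7 CPM, and between 26.2 and 41.2 CPM in the other 13 libraries. Its P0 Emcn+ libraries lay wholly below P0 Emcn-, as did those of 33.6% of all genes. By adjusted p, without reaching the fold limit, it differed in P0 Emcn+ against P0 Emcn- (-0.61, SE 0.169, edgeR adjusted p = 0.0185), in Lung against P0 Emcn+ (0.84, SE 0.169, adjusted p = 0.00325) and in P1 against P0 Emcn+ (1.03, SE 0.17, adjusted p = 0.000709). It was the only one of the 36 that was higher in P1 than in P0 Emcn+ and passed the adjusted p.

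Among the inhibitors of cyclin-dependent kinases, which are outside the 36, Cdkn1c and Cdkn2a were lower in P0 Emcn+ than in P0 Emcn-. Cdkn1c, the p57 inhibitor, was at 2.12 and 5.49 CPM in P0 Emcn+, at 47.5 and 199.6 CPM in P0 Emcn-, at 105 and 86.5 CPM in Lung, at 312 and 313 CPM in P1, at 252 and 234 CPM in P3, and at 12.01 and 3.44 CPM in BM MSC. In P0 Emcn- it was higher in replicate 2, the library with low mitosis genes, but in Lung it was lower in replicate 2, which also had low mitosis genes. It was called lower in P0 Emcn+ than in P0 Emcn- (log2 fold change -4.99, SE 0.793, edgeR adjusted p = 0.000863) and lower in BM MSC than in the mean of P1, P2 and P3 (-5.28, SE 0.757, adjusted p = 0.000703). Cdkn2a, which encodes p16 and p19Arf, was at 7.57 and 4.99 CPM in P0 Emcn+, at 39.7 and 30.1 CPM in P0 Emcn-, at 60.2 and 63.3 CPM in P1, at 102 and 82.96 CPM in P2, at 151 and 120 CPM in P3, and at 131 CPM in P4. It was called lower in P0 Emcn+ than in P0 Emcn- (-2.44, SE 0.411, edgeR adjusted p = 0.00122). The passage values of Cdkn2a and of the mitosis genes were both higher in P3 than in P1, but Cdkn2a did not pass there (1.18, adjusted p = 0.063 in the 11 libraries). Cdkn2b, the p15 inhibitor, was higher in P1 than in P0 Emcn- by adjusted p alone (1.18, SE 0.236, adjusted p = 0.00902), and Cdkn1a, the p21 inhibitor, exceeded P0 Emcn- in P0 Emcn+ by adjusted p alone (0.80, SE 0.246, adjusted p = 0.0292). Cdkn1b, Cdkn2c and Cdkn2d were not called in P0 Emcn+ against P0 Emcn- or in P1 against P0 Emcn-. Their CPM in the libraries ran from 29.6 to 92.1, from 11.7 to 69.8 and from 6.67 to 28.5.

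Other genes of the cycle were taken from lists by function. Of 35 further G2 and mitosis genes, 32 were more than 2-fold apart between the P0 Emcn- replicates, beside 8.24% of all genes. Between the lung replicates 33 were, beside 5.2%. Of 33 further S phase genes, 19 and 22 were, beside the same shares. In P0 Emcn+ against P0 Emcn- 1 gene of each list was called, beside 19.2% of all genes: Psrc1, a microtubule regulator, was lower (log2 fold change -1.92, SE 0.397, edgeR adjusted p = 0.004) and Pold3, a DNA polymerase delta subunit, higher (1.59, SE 0.202, adjusted p = 0.000211). In P1 against P0 Emcn+ 17 of 33 S phase genes and 15 of 35 G2 and mitosis genes were called lower, beside 11.8% of all genes, and 1, Psrc1, higher. Leaving the P0 Emcn- and lung libraries out, 5 of the 35 were called higher in P3 than in P1 (Kif23, Kif2c and Prc1 by the largest fold changes), and 2 of the 33 (Tk1 and Uhrf1), beside 0.485% of all genes. Of 23 inhibitors, pocket proteins, E2F and MuvB genes, 1 was higher in P0 Emcn+ and called against P0 Emcn- (Rb1, 1.76, SE 0.271, edgeR adjusted p = 0.000726) and 2 lower (Cdkn1c and Cdkn2a). In P1 against P0 Emcn-, 2 were called lower (E2f2 and Mybl2, B-Myb) and none higher, beside 3.07% of all genes called lower, with 4 higher by the adjusted p alone, as were 10% of all genes. Of 12 further kinases and regulators of the cycle, none was called in P0 Emcn+ against P0 Emcn- and 5 passed the adjusted p alone, as did 34.1% of all genes. Cdc7, a kinase that fires replication origins, was the only one called in P1 against P0 Emcn-, where it was lower (-1.66, SE 0.404, adjusted p = 0.0214).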

How the data were processed

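Whole-number gene counts of 15 bulk RNA-seq libraries were taken as the authors deposited them in 1 table of 44674 genes. Per the study's methods, trimmed reads were mapped to GRCm38 with STAR, quantified with Salmon and summarised with tximport, and how the estimates became whole counts is not given in the sources used here. Samples were grouped by GEO's labels. CPM used the total count of each library, which limits the precision at low levels (3 counts equal 0.0755 to 0.303 CPM), and ratios of single libraries used log2(CPM + 1). The test was edgeR 4.0.16 (R 4.3.3) quasi-likelihood with TMM scaling and filterByExpr (minimum count 10, minimum total 15), fitted to all 15 libraries with 1 term per condition (7 residual degrees of freedom), with Benjamini-Hochberg adjustment over 19401 genes. SE is the log2 fold change divided by the square root of F. A call needed an adjusted p under 0.05 and a log2 fold change beyond 1.5. The fit was tested on counts simulated with the same low spread in every gene and library and no batch differences. The simulation thus does not cover genes whose replicates lie as far apart as the mitosis genes here.

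The 36 genes and the other lists were chosen by function with earlier results of these data known. All 36 genes were eligible to be named, with full values for those called in a comparison or going against their role, besides 7 inhibitors and at most 3 called genes of each other list with the largest fold changes. P1 against P0 Emcn+ and the fit of 11 libraries without P0 Emcn- and Lung were added after seeing the data. The labels give replicate numbers as shared batches, and same-numbered libraries deviated together, with correlations of 0.139 to 0.209 in P0 and lung and 0.354 to 0.451 in P1 to P3, so fits with batch terms (5 residual degrees of freedom) were run beside. Alternatives were DESeq2 1.42.0 with and without ashr 2.2.63, no filter, other scaling, single batches, the adjusted p alone and each replicate left out. Motifs were searched as exact letters in RefSeq promoter windows.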

Additional observations from a re-analysis of the deposited data

Results flagged for a closer look

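P0 Emcn+ against P0 Emcn- went opposite ways in the batches for the mitosis genes. All 17 were lower in P0 Emcn+ in batch d and higher in batch a, with 1 library a side in each batch, and the difference was not tested. Their median log2 ratios were -1.02 and 2.72. Batch d and batch a also differ in the endothelial marker sum of P0 Emcn- (255 and 69.2 CPM) and in its count total (39718807 and 9914620), and the part of these in the difference was not tested. The study's methods report different sequencers among its batches, without saying whether d and a differ in this.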

How the results depend on the processing

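No called value changed direction under an alternative, and the uncalled mitosis fold changes of P0 Emcn+ over P0 Emcn- that were negative turned positive with batch terms. Counts of the 36 genes called moved by over 1.5 times as follows, and the cause was not tested. The share of all genes called by the same rule, in either direction, follows each count in parentheses. With DESeq2 the counts were 18 for batch d against batch a (2.12%), 18 for P1 against P0 Emcn- (10.6%), 2 for P3 against P1 (1.88%), 1 for P4 against P1 (1.78%) and 2 for the trend over P1 to P4 (2.19%). With ashr shrinkage they were 10 (0.88%), 10 (7.46%) and 1 (0.982%) for batch d against a, P1 against P0 Emcn- and P4 against P1. With no filter they were 16 for P1 against P0 Emcn- (6.2%), 5 for BM MSC against P0 Emcn- (11.9%) and 1 for P4 against P1 (0.476%). By the adjusted p alone they were 2 for P0 Emcn+ against P0 Emcn- (34.1%), 2 for Lung against P0 Emcn+ (37.2%), 6 for BM MSC against P0 Emcn- (35.3%) and 4 for BM MSC against the mean of P1, P2 and P3 (32%). The replicate block (batch terms) gave 1 for P0 Emcn+ against P0 Emcn- (19.4%), 1 for Lung against P0 Emcn+ (21.4%), 1 for BM MSC against the passages (13.6%) and 27 for P1 against P0 Emcn+ (32.5%). BM MSC against the passages also gave 1 in batch c alone (14.7%) and 1 in the 11 libraries (14.9%). In the 11 libraries the counts were 8 for P3 (0.806%), 3 for P4 (0.395%) and 7 for the trend (1%), and with the block 6 for P2 (0.126%), 10 for P3 (1.57%), 7 for P4 (0.617%) and 6 for the trend (0.896%). P4 is 1 library, assumed to vary like the other conditions. With TMM-scaled CPM the median level of the replication genes, in log2(CPM + 1), was 5.76 in place of 5.84 in P0 Emcn+ and 4.46 in place of 4.39 in P3, beyond their narrow replicate spread, and that of the other conditions and of the mitosis genes moved within it. With single replicates left out, counts ranged from 0 to 22 for batch d against a (0.103% to 1.63% of all genes), 0 to 0 for batch b against c (0.0154% to 0.349%), 0 to 1 for Lung against P0 Emcn- (2.11% to 3.48%) and against P0 Emcn+ (17% to 19.7%), 0 to 1 for BM MSC against the passages (10.3% to 13.2%), 2 to 23 for BM MSC against P0 Emcn- (14.4% to 17.3%), 0 to 16 for P0 Emcn+ against P0 Emcn- (15.7% to 18.6%), 0 to 27 for P1 against P0 Emcn- (4.17% to 11.3%), 6 to 11 for P1 against P0 Emcn+ (25.8% to 27.8%), and 0 to 0 for P2, P3 and P4 against P1 and the trend (at most 0.213%). The highest count for batch d against a came without a P0 Emcn+ library, when the term rests on P0 Emcn- and Lung alone. The median quasi-likelihood dispersion of the mitosis genes was 8.64 in the fit of all 15 libraries and 0.82 without P0 Emcn- and Lung. The fit of all libraries detects only larger differences in them. The other fit leaves out libraries because of their spread in these genes, so its p-values can be too small.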
